A study of Mus musculus with 20 samples.

Results

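The genes described here are 9 cytochrome P450 genes of drug metabolism in the mouse (Cyp1a1, Cyp1a2, Cyp2e1, Cyp2f2, Cyp2a5, Cyp2b10, Cyp2c29, Cyp3a11 and Cyp3a13) and Por, the gene of the reductase that feeds electrons to them. They make up 10 of 21887 protein-coding genes in the gene table, and were chosen by name. For each gene, every acetylated region that overlapped the gene's RefSeq span extended by 5 kb on both sides (the gene's window) was taken in each library, and the tags and the lengths of those regions were summed. Regions were summed whole, with any part that reached beyond the window. The mark measured was H3K27ac, acetylation of histone H3 at lysine 27, by chromatin immunoprecipitation and sequencing of hepatocytes freshly obtained by liver perfusion. The old mice were 23 months old and of substrain C57BL/6J, and the young mice were 5 months old and of substrain C57BL/6N, with 5 H3K27ac libraries from each and the same number of inputs. The effects of age and of substrain therefore cannot be told apart, and "old" and "young" below stand for both together. Whether the libraries came from separate mice is not stated, so the spread between libraries behind each p may be technical. Human chromatin had been added to all samples as a spike-in, but no spike-in scaling was used here.

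Cytochrome P450 enzymes are haem proteins of the endoplasmic reticulum that insert oxygen into drugs, toxins, steroids and fatty acids, and the liver is their main site. They depend on NADPH-cytochrome P450 reductase, the product of Por, for electrons. Many of their genes are induced by foreign compounds through the aryl hydrocarbon receptor (Cyp1a1, Cyp1a2), the constitutive androstane receptor (Cyp2b10) or the pregnane X receptor (Cyp3a11), and several are expressed on one side of the liver lobule, Cyp2e1 and Cyp1a2 near the central vein and Cyp2f2 near the portal vein. H3K27ac marks active promoters and enhancers and was measured here in place of RNA, so no value below is a transcript level.

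All 8 hepatocyte marker genes carried a region in each of the 10 libraries, with summed tags of 4019 to 6683 in old and 7258 to 9994 in young. Of 9 Kupffer cell markers 0 were called in any old library and at most 1 in a young one (summed tags 0 in old and 0 to 12.5 in young), with Adgre1, Clec4f and Marco at 0 throughout. Of 9 endothelial markers 3 to 6 were called in old and 3 to 5 in young libraries, with summed tags of 138.2 to 552 in old and 300.01 to 1026 in young. Stab2 was called in all 10 libraries, and Kdr, Cdh5 and Tek were at 0. Of 9 stellate markers at most 1 was called (44.5 to 103 tags in old, 0 to 144 in young, Lrat and Des at 0). Of 7 cholangiocyte markers 1 to 2 were called at either age (221.6 to 520.1 tags in old, 253 to 580.4 in young). Sox9 was called in all 10 libraries, and Krt19, Krt7 and Epcam were at 0. Of 6 lymphocyte markers 3 were called in old and 2 to 3 in young (535 to 802 tags in old, 524 to 1092 in young). Cd3g and Nkg7 were called in all 10 libraries, and Ptprc and Cd3e were at 0. The part of these cell types in the results was not tested. In such bulk samples fewer cells of a type and less signal per cell cannot be told apart. The libraries held 6295930 to 15544145 tags and 21213 to 30195 called regions. Of all tags in a library, those lying in its regions made up on average 31.9% ± 4.81 in old and 40.2% ± 6.62 in young libraries (the in-region share; SD, n = 5 each; two-sided exact permutation p = 0.0476). Of the libraries 2 stood apart in these measures, old replicate 5 with the fewest tags and the lowest share (24.5%), and young replicate 5 with the most tags and a fragment length of 620 bp against 414 to 444 bp in the others.

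The promoters of 4 members are shown for the following reasons. Por carried the only region in the set that passed the test between ages, and Cyp3a11 had the largest difference. The start of Cyp2f2 was called in fewer old than young libraries, and the start of Cyp1a1 was called in 1 of 10 libraries. Fewer calls in old were not particular to Cyp2f2. They were also seen at the starts of Cyp2c29 (3 old, 5 young) and Cyp2e1 (4 old, 5 young), and the share of all genes was not counted. Each sequence runs from 250 bases before to 50 bases after the start of transcription, 5′ to 3′ on the gene's strand, from RefSeq on GRCm38.p6 (the assembly of mm10). Capitals mark matches on either strand to GCGTG (the core bound by the aryl hydrocarbon receptor with its partner ARNT), AGGTCA and AGTTCA (nuclear receptor half-sites), TTGCGCAA (C/EBP), GTTAAT (an HNF1 half-site), TGTTTAC (FOXA) and TATAAA (the TATA box), and a match on the other strand appears as its reverse complement. They lie at chr5:135688895-135689194 (plus strand), chr5:145879805-145880104 (minus strand), chr7:27119705-27120004 (plus strand) and chr9:57697363-57697662 (plus strand). A single start was used per gene. The RefSeq spans of Por (chr5:135670040-135735326) and Cyp1a1 (chr9:57687928-57703824) begin before the start used.
Por: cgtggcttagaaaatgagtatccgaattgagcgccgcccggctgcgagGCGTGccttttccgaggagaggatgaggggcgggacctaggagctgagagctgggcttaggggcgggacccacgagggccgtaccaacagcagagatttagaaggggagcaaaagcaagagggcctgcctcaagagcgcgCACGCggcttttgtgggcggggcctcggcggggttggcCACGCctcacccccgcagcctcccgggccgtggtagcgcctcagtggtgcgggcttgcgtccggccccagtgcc
Cyp3a11: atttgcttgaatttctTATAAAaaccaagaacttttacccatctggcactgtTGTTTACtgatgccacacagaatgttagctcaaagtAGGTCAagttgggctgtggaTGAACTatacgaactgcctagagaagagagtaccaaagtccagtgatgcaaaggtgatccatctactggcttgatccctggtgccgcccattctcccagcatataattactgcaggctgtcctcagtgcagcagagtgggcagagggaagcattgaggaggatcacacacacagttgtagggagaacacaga
Cyp2f2: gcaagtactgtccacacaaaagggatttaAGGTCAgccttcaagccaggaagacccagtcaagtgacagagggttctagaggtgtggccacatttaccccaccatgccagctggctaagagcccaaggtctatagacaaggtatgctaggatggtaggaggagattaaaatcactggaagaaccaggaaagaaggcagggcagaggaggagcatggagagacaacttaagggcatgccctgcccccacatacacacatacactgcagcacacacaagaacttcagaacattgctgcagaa
Cyp1a1: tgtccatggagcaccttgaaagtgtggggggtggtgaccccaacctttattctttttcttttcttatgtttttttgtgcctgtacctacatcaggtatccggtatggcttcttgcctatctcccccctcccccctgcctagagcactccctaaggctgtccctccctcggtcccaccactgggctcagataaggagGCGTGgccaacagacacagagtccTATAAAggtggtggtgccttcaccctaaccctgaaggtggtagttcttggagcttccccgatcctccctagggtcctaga

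The Por promoter differed in composition from those of the P450 genes. It held 27 CpG dinucleotides at 67.3% GC, and the 9 P450 promoters held 0 to 4 CpG at 35.3% to 54.0% GC, against medians of 7 CpG and 52.7% over the 32851 promoters in the table. TATAAA stood in 6 of the 10 promoters (Cyp1a1, Cyp1a2, Cyp2e1, Cyp2a5, Cyp2c29 and Cyp3a11) and in 13.6% of all promoters, and in 5 of these 6 it began between −31 and −19. In Cyp3a11 it lay at −234 to −229 instead, ahead of TGTTTAC (3.65% of all promoters) and of both nuclear receptor half-sites, AGGTCA at −162 to −157 and AGTTCA, on the other strand, at −142 to −137. AGGTCA was also found in Cyp2f2, Cyp2a5 and Cyp2c29 (16.3% of all promoters), AGTTCA in no other member (14.0%), and GTTAAT in Cyp2a5 alone (7.10%). GCGTG was found in Cyp1a1, Cyp2b10 and Por (32.4%) and TTGCGCAA in none of the 10 (0.183%). These are matches of letters, not sites shown to be bound.

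In scaled tags per kb of called length, the mean over all libraries in which a gene was called was highest in Cyp1a1 (75.1 ± 22.6, SD, n = 10). Por (51.0 ± 7.41) and Cyp2f2 (51.0 ± 11.7) came next and did not differ beyond their spread, nor did Cyp3a13 (44.8 ± 6.10) from Cyp2f2. Cyp2e1 (34.7 ± 6.81), Cyp2c29 (34.5 ± 10.2), Cyp3a11 (32.02 ± 6.48), Cyp1a2 (30.2 ± 4.73) and Cyp2a5 (29.1 ± 5.23 in the 7 libraries that called it) were neighbours within 1 SD of each other, and Cyp2b10 was lowest (23.1 ± 4.17 in 5 libraries). On summed tags, Por lay at percentile 95.2 of the 9703 genes with a region in all 10 libraries, Cyp2f2 at 81.2 and Cyp1a1 at 63.9, whereas Cyp2e1 (20.8), Cyp3a13 (14.1), Cyp3a11 (11.1), Cyp1a2 (8.65) and Cyp2c29 (5.09) stood low. Of the 10 members, 8 had a region in all libraries and were tested between ages. Cyp2a5 and Cyp2b10 did not and are described only.

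**Figure D1:**
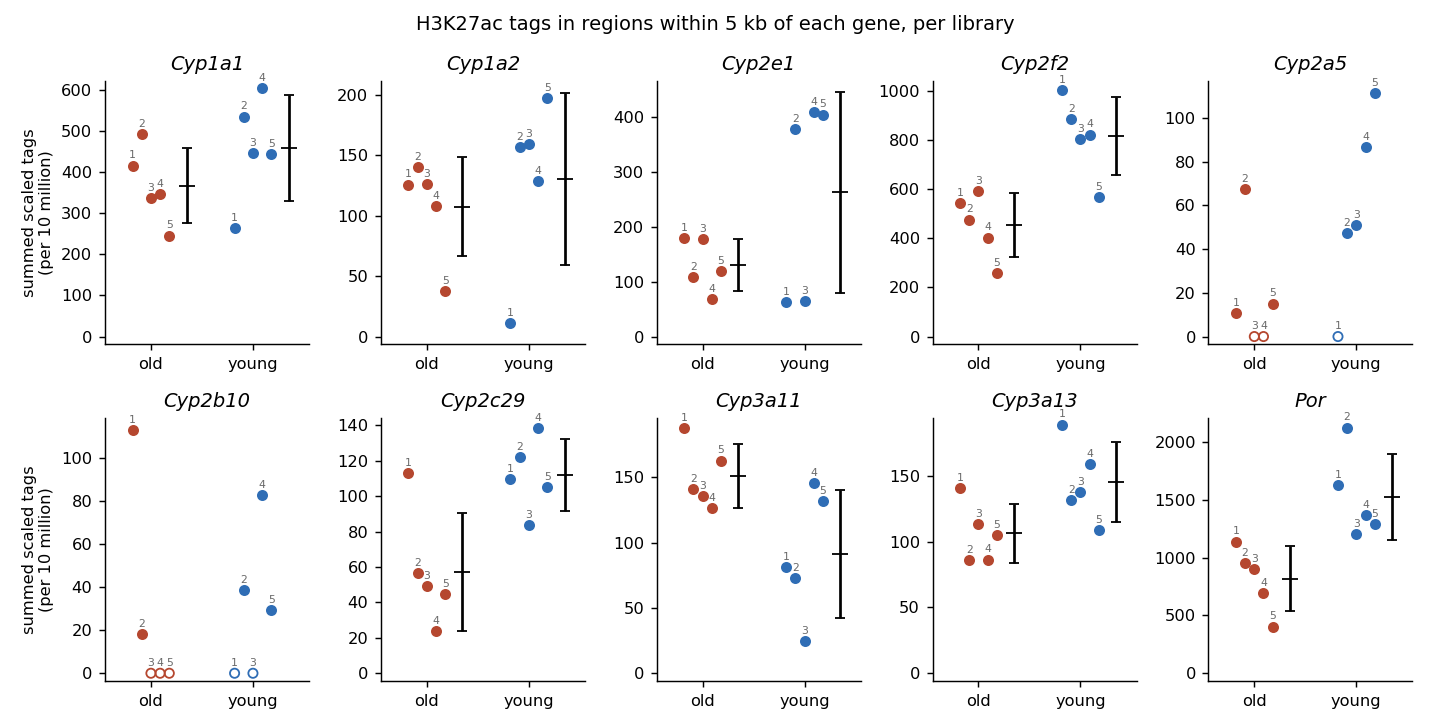
Summed H3K27ac tags (scaled to 10000000 tags per library, vertical axis from 0 in each panel) in the window of each member, for old libraries at left and young at right, with replicate numbers beside the points. Open points at 0 are libraries with no called region, and bars give mean ± SD (n = 5) for the 8 members called in all libraries. The old and young points of Por do not overlap, those of the other members do, and Cyp2a5 and Cyp2b10 have open points at both ages.

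Between ages, the summed tags of 0 of the 8 tested members passed an adjusted p of 0.05 in limma with Benjamini-Hochberg adjustment over all 9703 genes, against 21 (0.216%) of all genes. At an unadjusted p under 0.05 there were 4 members, against 13.7% of all genes. Por, Cyp2f2 and Cyp2c29 were the 3 on the lower side in old (7.12% of all genes) and Cyp3a11 was the 1 on the higher side (6.58%). The median log2 difference, old minus young, was −0.19 over the 8 members and 0.00 over all genes, and 3 of the 8 differences were positive, against 50.4% of all genes. Each library had been centred on its median gene for these tests, because without centring the median log2 difference of all genes was −0.34 and 90.2% of them had a lower mean in old. The raw tags quoted below still contain that overall difference, while the log2 differences do not.

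**Figure D2:**
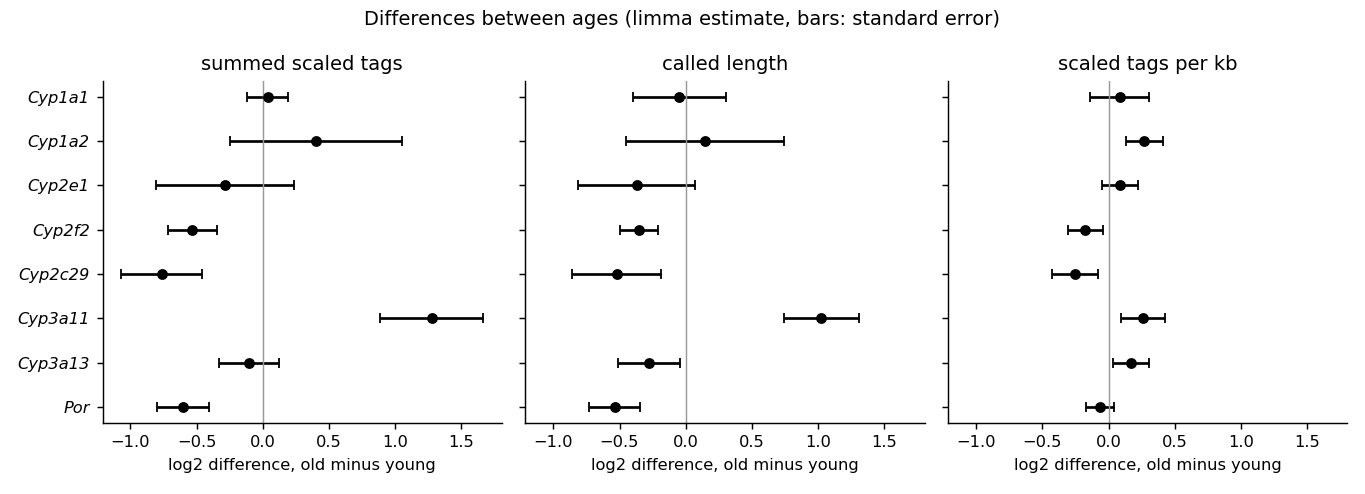
Log2 difference, old minus young, of the 8 tested members in summed scaled tags, called length and scaled tags per kb of called length (limma estimates on centred values, bars are standard errors, 5 libraries per age). Cyp3a11 lies at 1.27 in tags and 1.02 in length, Por at −0.60 and −0.54, and the differences per kb lie between −0.25 and 0.27.

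Por encodes the electron donor of all microsomal P450 enzymes. Its window (chr5:135665040-135740326) held 1138, 953, 898, 693 and 403 scaled tags in old replicates 1 to 5, against 1623, 2122, 1201, 1364 and 1287 in young replicates 1 to 5. No old value reached the lowest young one, an arrangement found in 9.23% of all genes tested (1.91% after centring), and after centring the groups overlapped. Relative to young, the log2 difference was −0.60 ± 0.19 (SE), or 0.658-fold, and missed the threshold (limma adjusted p = 0.229). The called length behind these tags was 17652 ± 5874 bp in old and 27348 ± 5102 bp in young (SD, n = 5 each; log2 difference −0.54, adjusted p = 0.376). In tags per kb the means were 46.7 ± 6.26 in old and 55.4 ± 6.06 in young (log2 difference −0.07, adjusted p = 0.873). The window held 13, 13, 9, 12 and 5 called regions in the old libraries against 10, 7, 8, 8 and 7 in the young, with a mean region length of 1699 bp in old against 3509 bp in young. More regions together with less called length in old were found in 14.2% of all genes tested.

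When the regions of the 10 lists were merged into consensus regions, the Por window held 6 of the 24 that touch any member. The strongest, at chr5:135687043-135698600, ran from −2102 to 9455 bp relative to the start of transcription, took in the promoter shown above and the stretch just after that start, and held 56.7% of the window's tags. It had 562, 551, 518, 385 and 327 scaled tags in the old libraries, against 827, 1056, 705, 854 and 785 in the young, with no overlap, before or after centring. Of all consensus regions tested, 8.3% had every old library below every young one before centring and 2.96% after it. This region fell in old by 0.57 on the log2 scale after centring (SE 0.10, limma adjusted p = 0.0272), against 1.07% of the 12550 consensus regions called in all libraries that passed in either direction. It was the 1 past the threshold among the 10 member regions called in all libraries, of which 6 had an unadjusted p under 0.05, against 17.2% of all regions. These 6 were the Por regions beginning at −16670, −2102 and 20982 bp and those over the starts of Cyp2f2, Cyp2c29 and Cyp3a11, with only that of Cyp3a11 higher in old. They lie in the windows already named for summed tags and do not add to that count. The call of the region at the Por start was lost without old replicate 3, 4 or 5 or without young replicate 2 or 5 (adjusted p = 0.0530 to 0.0733, log2 difference −0.57 to −0.54). On tags per kb the difference was −0.24 (adjusted p = 0.425), and with the share of tags in called regions as a covariate −0.53 (adjusted p = 0.194).

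Upstream of it, the region from −16670 to −4293 bp held 191 ± 88.7 tags in old and 367 ± 85.1 in young libraries (SD, n = 5 each; log2 difference −0.81, adjusted p = 0.192). This upstream region also lay inside the gene's RefSeq span, which begins at chr5:135670040. Downstream of the start, the region from 20982 to 25590 bp held 20.3 ± 11.7 tags in old and 91.3 ± 70.5 in young (log2 difference −1.62, adjusted p = 0.157). In the young libraries this last region ranged from 29.6 to 200.4 tags, and its old values overlapped them. The 3 others, at 13420, 17558 and 31173 bp, were each missing from at least 1 library and were not tested.

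**Figure D3:**
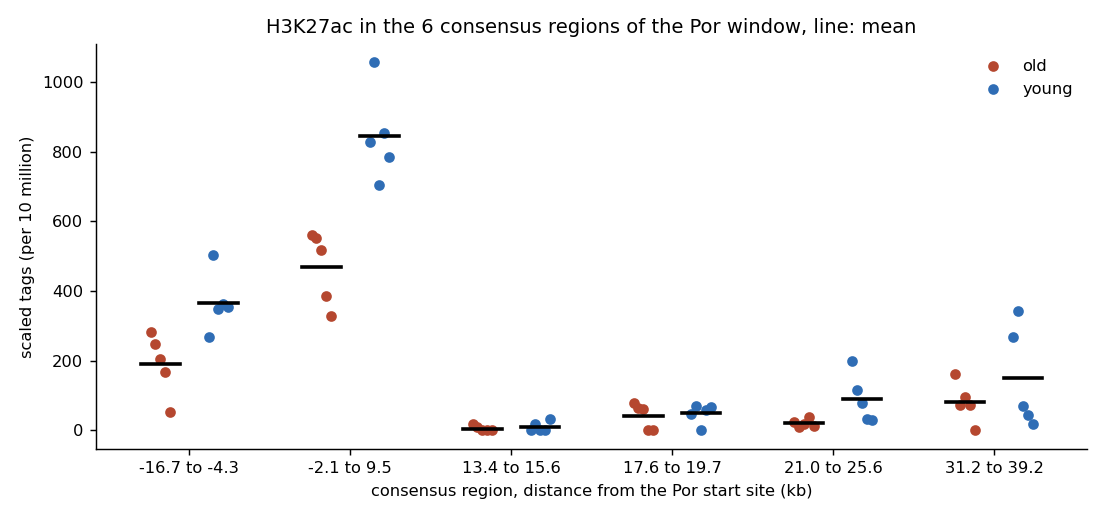
Scaled tags (per 10000000) of each library in the 6 consensus regions of the Por window, named by their distance from the start site in kb, with old at left and young at right of each position and a line at the mean. At the region across the start site old libraries lie between 327 and 562 and young libraries between 705 and 1056.

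Cyp2f2, a periportal P450 gene whose enzyme oxidises naphthalene, carried one long domain across its start and most of the gene (chr7:27115455-27131605, −4500 to 11650 bp from the start). Its window held 543, 476, 592, 403 and 259.7 scaled tags in old replicates 1 to 5 against 1003, 883, 804, 822 and 568 in young replicates 1 to 5. Old replicate 3 lay above young replicate 5, and the other old libraries lay below the young ones. In the test the log2 difference was −0.53 ± 0.19 (SE; limma adjusted p = 0.255), and that of the consensus region was −0.57 (adjusted p = 0.102). Called length averaged 10232 ± 2556 bp in old and 14201 ± 873 bp in young (SD, n = 5 each), with no overlap before centring, as in 3.83% of all genes tested (log2 difference −0.35, adjusted p = 0.444). The regions numbered 3.40 ± 0.55 per library in old, with a mean length of 3065 bp, against 2.20 ± 0.45 and 6598 bp in young. The promoter printed above was called in 2 of 5 old and 5 of 5 young libraries. In old replicates 3, 4 and 5 the main region began inside the gene, at 244, 62 and 1164 bp from the start. That of old replicate 4 thus began just past the end of the printed promoter. A promoter without a call may still hold signal. The share of all genes with fewer promoter calls in old than in young was not counted.

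Cyp3a11, the main inducible CYP3A gene of mouse liver and a target of the pregnane X receptor, had a positive difference. Its window held 187, 141, 136, 126 and 163 scaled tags in old replicates 1 to 5, against 81, 73.1, 24.5, 146 and 132 in young replicates 1 to 5. Before centring the groups overlapped at young replicates 4 and 5, and after centring the lowest old library lay above the highest young one, as in 1.99% of all genes tested (0.0824% before centring). After centring the log2 difference was 1.27 ± 0.39 (SE), or 2.42-fold, and did not pass (limma adjusted p = 0.215). Called length was 4611 ± 382 bp in old and 2877 ± 1390 bp in young (SD, n = 5 each; log2 difference 1.02, adjusted p = 0.222), whereas 77.7% of all genes tested had less called length in old. Tags per kb were close, 33.04 ± 7.48 in old and 30.999 ± 5.99 in young (log2 difference 0.26, adjusted p = 0.606).

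Nearly all of the Cyp3a11 signal, 95.5% of its tags, lay in one region over the start (chr5:145876527-145881645, −1791 to 3327 bp). The promoter was called in all 10 libraries. That region had a log2 difference of 1.14 (adjusted p = 0.158). A second, weak region from 11474 to 12436 bp inside the gene was called in 3 old libraries (20.6, 16.2 and 17.6 tags) and in 0 young ones. A region that was not called may still hold signal, and the share of all regions split in this way was not counted.

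**Figure D4:**
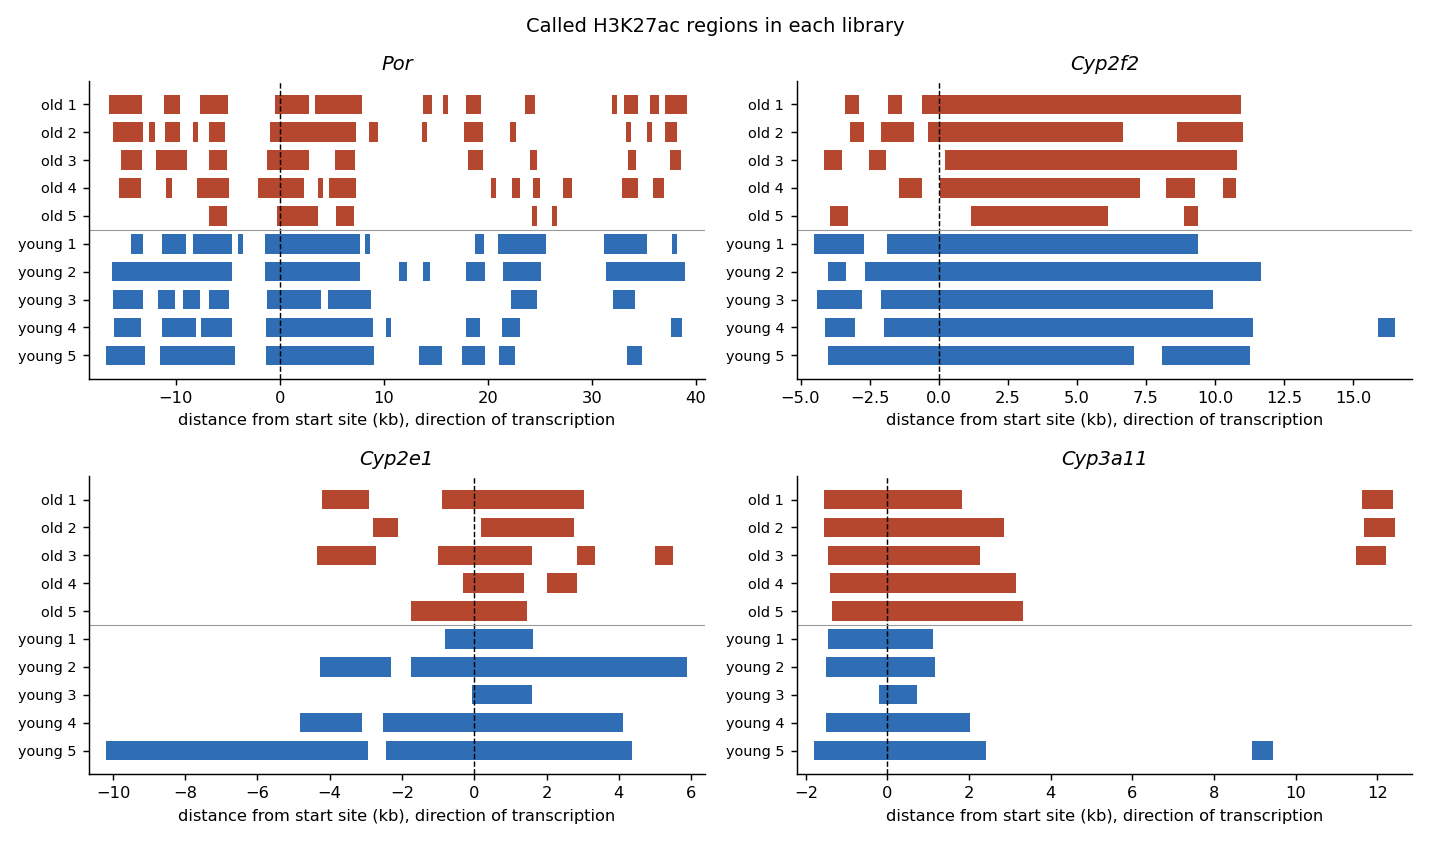
Called H3K27ac regions (bars) in each of the 10 libraries in the windows of Por, Cyp2f2, Cyp2e1 and Cyp3a11, against distance from the start of transcription in kb (dashed line at 0), old libraries above and young below. Por and Cyp2f2 show shorter pieces in old on average, the region at the Cyp3a11 start is present in every library with ends that overlap between ages, and Cyp2e1 has a domain of very unequal length among the young libraries.

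Cyp3a13, a second CYP3A gene, held 141, 86.3, 113, 86.4 and 105 scaled tags in old replicates 1 to 5 against 189, 132, 138, 159 and 109 in young replicates 1 to 5, with overlap. The log2 difference was −0.10 ± 0.23 (SE, adjusted p = 0.867), and its promoter was called in all 10 libraries. The region over the start (−1565 to 1519 bp) held 90.6% of the tags and had a difference of 0.00 (adjusted p = 0.9995). A small region from 1846 to 3022 bp was called in 0 old and 4 young libraries, with 9.01 to 24.5 tags. Libraries without this call may still hold signal there, and how many of all regions were split in this way was not counted.

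Cyp2e1, a pericentral P450 gene whose enzyme oxidises ethanol and paracetamol, varied most within the young group. Its window (chr7:140758819-140779990) held 179, 109, 177, 68.4 and 119 scaled tags in old replicates 1 to 5, against 62.3, 378, 64, 409 and 405 in young replicates 1 to 5. Young replicates 1 and 3 lay below every old library and young replicates 2, 4 and 5 above every one. The log2 difference was −0.29 ± 0.52 (SE, adjusted p = 0.835), and the residual spread of this gene stood at percentile 97.3 of all genes tested. Called length of the regions touching the window was 2515 to 5242 bp in old, against 2422 and 1665 bp in young replicates 1 and 3 and 8359 to 14049 bp in the other young libraries. The sums of young replicate 5 include a region from −10181 to −2939 bp with 159.9 tags, which reached beyond the window. Tags per kb were 33.2 ± 3.67 in old and 36.2 ± 9.23 in young (SD, n = 5 each). The consensus region, which reaches from −10181 to 5891 bp and so beyond the window in some libraries, had a difference of −0.33 (adjusted p = 0.752). Young replicates 1 and 3 are the lowest libraries at this gene, so leaving them out makes the old group lower by construction, and the −1.20 of the region without them (adjusted p = 0.0217, in a range of 0.0217 to 0.935 over all alternatives) is given as a description. The difference was positive with the in-region share as a covariate, at 0.28 for the region, and without young replicate 5, at 0.023 for the window's tags.

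Cyp1a2, a pericentral gene of caffeine and arylamine metabolism, was also unequal. It held 126, 140.2, 126, 108 and 37.4 scaled tags in old replicates 1 to 5 and 10.8, 157, 159, 129 and 197 in young replicates 1 to 5. Young replicate 1 and old replicate 5 lay far below the others, and the groups overlapped. Its residual spread was at percentile 99.2 of all genes tested, and its log2 difference was 0.40 ± 0.65 (SE, adjusted p = 0.810). Without young replicate 1 the difference was −0.28, in the opposite direction (adjusted p = 0.718, in a range of 0.623 to 0.993 over all alternatives). The count models gave 0.013 (edgeR) and 0.027 (DESeq2). Its promoter was called in 4 of 5 libraries at each age. The strongest consensus region touching the window lay past the gene, 11461 to 17143 bp from the start, at the window's edge. It gave 120.3 of the tags summed in young replicate 5, 71.0 in old replicate 4, 41.2 in old replicate 1 and 19.5 in old replicate 3. Young replicate 4 held 172 tags there, old replicate 2 held 99.5 and young replicate 2 held 62.2, in calls that did not reach the window and were not summed. Old replicate 1 held 118.3 tags there in all, and those beyond the 41.2 were likewise not summed.

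Cyp1a1, the classical target of the aryl hydrocarbon receptor, is a neighbour of Cyp1a2, and their windows share 2 consensus regions. Its window (chr9:57682928-57708824) held 416, 492, 337, 347 and 245.5 scaled tags in old replicates 1 to 5 against 263, 535, 447, 604 and 445 in young replicates 1 to 5, with wide overlap. Its log2 difference was 0.04 ± 0.15 (SE, adjusted p = 0.935), and −0.30 (adjusted p = 0.366, the lowest over all alternatives) without centring. Most of this signal did not lie at the gene itself. A region from 10250 to 13767 bp past the start, which overlaps the neighbouring gene Edc3, held 70.9% of the tags and gave Cyp1a1 its high level per kb. It had 251 ± 31.9 tags in old and 333 ± 70.8 in young libraries (SD, n = 5 each; log2 difference −0.09, adjusted p = 0.740).

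The region across the Cyp1a1 start (−1774 to 319 bp) held 6.60% of the window's tags. It was called in 3 old libraries, with 46.5, 75.7 and 53 tags, and in 2 young ones, with 51.9 and 45 tags. The promoter printed above, with GCGTG at −54 to −50 and TATAAA at −30 to −25, lay inside a called region in 1 old and 0 young libraries. The shared region over the start of Cyp1a2 (−1053 to 1108 bp from that start) was called in all 10 libraries, with 28.6 ± 14.7 tags in old and 35.6 ± 22.0 in young (SD, n = 5 each; log2 difference 0.10, adjusted p = 0.926).

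Cyp2c29, a CYP2C gene, had a single region over its start (chr19:39286347-39289862, −738 to 2777 bp). It held 113, 56.4, 49, 23.9 and 44.5 scaled tags in old replicates 1 to 5 against 109.8, 122, 83.8, 139 and 105 in young replicates 1 to 5. Old replicate 1 lay among the young libraries and the other old libraries lay below all of them. Centred, the log2 difference was −0.76 ± 0.31 (SE), or 0.589-fold, and missed the threshold (limma adjusted p = 0.310). Its length differed by −0.52 (adjusted p = 0.653) and its tags per kb by −0.25 (adjusted p = 0.633). The promoter was called in 3 of 5 old and 5 of 5 young libraries. In old replicates 4 and 5 the region began at 645 and 64 bp from the start, in replicate 5 just past the promoter's end. Signal may still be present at a promoter without a call, and how many of all genes had such a split was not counted.

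The 2 members not tested were the weakest. Cyp2a5, the coumarin hydroxylase gene, was called in 3 old libraries with 10.6, 67.5 and 15.1 scaled tags and in 4 young ones with 47.2, 51.1, 86.6 and 111 tags. Cyp2b10, the classical target of the constitutive androstane receptor, was called in 2 old libraries with 113 and 18.3 tags and in 3 young ones with 38.6, 82.7 and 29.3 tags. The promoter of Cyp2a5 was called in 1 library of each age and that of Cyp2b10 in 1 old and 0 young libraries. Both groups overlapped in both genes, and a library without a call may still hold signal below the calling limit. Cyp2a5, Cyp2b10, Cyp2c29 and Cyp3a11 belong to families of similar genes, and how reads that match several copies were placed is not given in the sources used here.

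For called length, 0 of the 8 members passed the adjusted threshold, against 1 gene (0.0103%) of all. At an unadjusted p under 0.05 there were Cyp3a11, Por and Cyp2f2, against 9.78% of all genes. For tags per kb 0 of 8 passed, against 9 genes (0.0928%), and 0 of 8 were under an unadjusted 0.05, against 10.6% of all genes. The 4 members with an unadjusted p under 0.05 in summed tags thus had smaller differences per kb, between −0.25 and 0.26.

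Other genes of the system were read from lists chosen by function. Of all genes tested, 7.12% were lower and 6.58% higher in old at an unadjusted p under 0.05, and 50.4% had a positive difference, and the counts below stand beside these shares. Of 51 other genes of the CYP1, CYP2 and CYP3 families, 35 carried a region in some library and 18 could be tested. Of these 1 rose and 0 fell past the adjusted threshold (0.216% of all genes called in either direction), with 6 positive and 12 negative differences and a median of −0.10. The gene that rose was Cyp2j11, of the CYP2J subfamily, whose enzymes oxidise polyunsaturated fatty acids. Its window held 116, 135, 142, 137 and 116 scaled tags in old replicates 1 to 5 against 17.6, 55.8, 38.2, 34.8 and 57 in young replicates 1 to 5, without overlap (0.0824% of all genes lay wholly above young before centring). The log2 difference was 2.09 ± 0.28 (SE), or 4.25-fold (limma adjusted p = 0.0145), and 1.93 with the share of tags in called regions as a covariate (adjusted p = 0.135). The tags came from 2 sites inside the gene (chr4:96294508-96348693). One lay between 16595 and 18737 bp past the start in old libraries and was called in 4 of 5 young ones, and the other lay between 22227 and 23902 bp in old and was called in all 10. Without old replicate 4 the adjusted p was 0.0514, and over all alternatives it ran from 2.4e-09 to 0.135. The lowest gene of the list was Cyp2d11 at −0.88 (adjusted p = 0.383), but over the gene span without the 5 kb flanks its difference was 0.0084.

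Among genes of electron partners and of the making and breakdown of haem, 14 of 16 were tested, 0 passed in either direction (1 at an unadjusted p under 0.05, lower, against 7.12% of all genes), and the median was 0.08. Alas1, the rate-limiting enzyme of haem synthesis, held 500.2 ± 139.8 tags in old and 976 ± 255 in young libraries (SD, n = 5 each), with a log2 difference of −0.63 and an adjusted p of 0.0599. DESeq2 gave −0.61 with an adjusted p of 0.00129, and over all alternatives the adjusted p ran up to 0.330. Hmox1, which breaks haem down, was highest at 0.56 (adjusted p = 0.712).

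Of 21 receptors and transcription factors that act on P450 genes, all were tested and 0 passed (4 at an unadjusted p under 0.05, each lower, against 7.12% of all genes), with 6 positive and 15 negative differences, against 50.4% positive over all genes, and a median of −0.06. The bile acid receptor gene Nr1h4 was lowest at −0.61 (adjusted p = 0.333) and Nr0b2, a repressor that it induces, highest at 0.67 (adjusted p = 0.470). The others under an unadjusted 0.05 were Rxra at −0.59 (limma adjusted p = 0.133), Hnf4a at −0.46 (adjusted p = 0.267) and Foxa3 at −0.42 (adjusted p = 0.217). The receptors that induce the members stood at −0.01 for the pregnane X receptor (Nr1i2), −0.16 for the constitutive androstane receptor (Nr1i3) and −0.47 for the aryl hydrocarbon receptor (Ahr). Of 7 targets of the aryl hydrocarbon receptor other than the members, 4 were tested and 0 passed (2 at an unadjusted p under 0.05, both higher, namely Ugt1a6a and Ugt1a6b, which overlap in the genome), with a median of 0.29. Ugt1a6a, a glucuronosyltransferase gene, was highest at 0.48 (adjusted p = 0.178) and Tiparp lowest at −0.03 (adjusted p = 0.943).

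Of 14 pericentral genes 8 were tested and 0 passed (2 at an unadjusted p under 0.05, both lower, against 7.12% of all genes), with 1 positive and 7 negative differences and a median of −0.23. Cyp27a1, the sterol 27-hydroxylase gene, was lowest at −0.59 (adjusted p = 0.0776, and 0.00142 to 0.321 over all alternatives) and Rgn highest at 0.43 (adjusted p = 0.442). Of 13 periportal genes 12 were tested and 0 passed (6 at an unadjusted p under 0.05, each lower, against 7.12% of all genes), with 4 positive and 8 negative differences and a median of −0.35. Cdh1, which encodes E-cadherin, was lowest at −1.66 (adjusted p = 0.204) and the glutaminase gene Gls2 highest at 0.35 (adjusted p = 0.611). The differences of Cyp2e1 and Cyp1a2, named above as pericentral, were −0.29 and 0.40, and that of the periportal Cyp2f2 was −0.53. The other tested members were not placed by zone here. They stood at −0.76 (Cyp2c29), −0.60 (Por), −0.10 (Cyp3a13), 0.04 (Cyp1a1) and 1.27 (Cyp3a11).

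**Figure D5:**
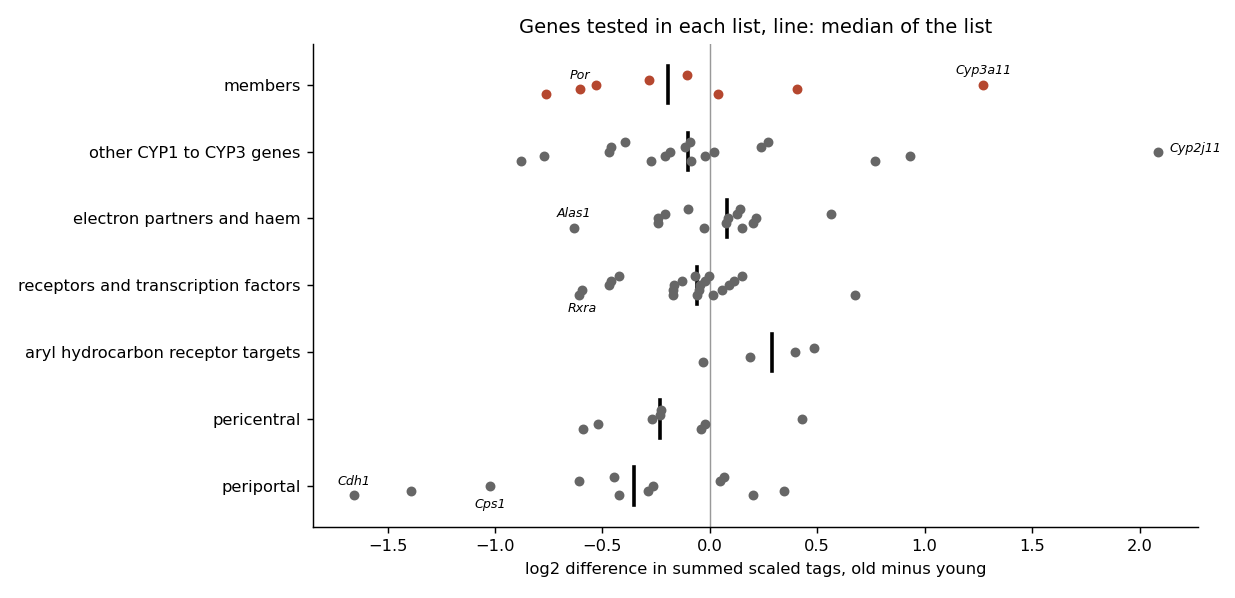
Log2 difference in summed scaled tags, old minus young, of the genes tested in each list (points, spread vertically for legibility), with a line at the median of the list. Cyp2j11 at 2.09 is the 1 gene past the adjusted threshold, and the medians run from −0.35 in the periportal list to 0.29 among the targets of the aryl hydrocarbon receptor.

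Pattern over the libraries was compared as the root mean squared distance between centred log2 values, each gene minus its own mean, over the 10 libraries. Among the members Cyp2f2 and Por were the closest pair, at 0.24. Among other genes tested the nearest to Por was Slc6a9 (0.16), to Cyp2f2 Mrpl16 (0.11), to Cyp1a1 Eaf2 (0.08), to Cyp3a13 Fas (0.11) and to Cyp2c29 Pdia6 (0.20). The members of wider spread had more distant nearest genes, Dpy19l1 for Cyp2e1 (0.30), Clic1 for Cyp3a11 (0.32) and Exosc7 for Cyp1a2 (0.34). The median distance to all genes compared was 0.45 for Cyp2f2, 0.50 for Por, 0.37 for Cyp1a1 and 1.14 for Cyp1a2. The difference between ages was not removed from these values and enters every distance.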

How the data were processed

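Per the file headers, the authors ran HOMER in its histone style on each library alone, with the matched input as background. A region had to exceed its input 4-fold (Poisson p of 1e-04) and its local surroundings of 10000 bp 4-fold, and peaks of 500 bp were joined into regions. The submitters' processing notes name mm10 as build. Aligner and HOMER version are not given in the sources used. The normalised tag number of a region is a signal that the authors scaled to 10000000 tags per library. The unscaled tags, deposited by the authors and not always whole, were used like expected counts and rounded for the count tests. The input tags are a signal, and the fold over input a ratio of at least 4, both as deposited by the authors. Input samples entered only through these columns. Region length in bp was deposited with each region.

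Tags, length and tags per kb were summed for the window of each protein-coding gene of RefSeq on GRCm38.p6 (an overlap of 1 bp counted) and tested with limma 3.58.1 (mean-dependent prior) on log2 values, with a pseudocount of 1 for tags, after centring each library on its median over the 9703 genes with a region in all 10 libraries. The fold changes are on that log2 scale, where the pseudocount by itself understates the change of weak genes, and they can lie above or below those of the count models. Of 46767 merged regions, 31747 were called in at least 2 libraries (consensus regions) and 12550 in all 10. P-values were adjusted by Benjamini-Hochberg over all genes or regions tested. The limma step was tested on simulated data. Alternatives were edgeR 4.0.16, DESeq2 1.42.0, other windows, filters, scalings and each library left out. All members are named, and in each list any gene past the threshold plus the highest and lowest difference. Nr1i2, Nr1i3 and Ahr are given besides as the receptors of members. Rxra, Hnf4a, Foxa3 and Ugt1a6b are given as genes with an unadjusted p under 0.05. R 4.3.3, Python 3.11.15, pandas 2.3.3, numpy 2.4.6, scipy 1.17.1 and matplotlib 3.10.9 were used. The members, lists and tests were chosen with earlier results of these data known.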

Additional observations from a re-analysis of the deposited data

Results flagged for a closer look

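Among 57 groups of 4 or 5 libraries (10 members, 2 ages, 3 measures), 7 had 1 library far from the others. The rule was Dixon's criterion at 95%, which chance alone meets in about 1 in 20 groups of independent, normally distributed values. The groups here are not independent, because tags and length are sums over the same called regions. At Cyp2b10 and Cyp2a5, libraries without a called region entered with no tags and no length. Whether 7 groups are more than chance gives therefore cannot be judged from that rate. In Cyp2b10, old replicate 1 stood out with 113 scaled tags (next 18.3) and 4206 bp of called length (next 1000 bp). In Cyp2a5, old replicate 2 stood out with 67.5 scaled tags (next 15.1) and 2578 bp (next 500 bp). In Cyp1a1, young replicate 1 had the shortest called length, 2081 bp (next 6970 bp). In tags per kb, old replicate 3 was highest at Cyp2f2, with 50.1 (next 43.4), and young replicate 4 at Cyp2c29, with 60.9 (next 38.5).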

How the results depend on the processing

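In the gene windows, 0 of 459 values of the tested members under all alternatives passed an adjusted p of 0.05 (the lowest, 0.0581, for Cyp2f2). Por, Cyp2f2 and Cyp2c29 stayed negative and Cyp3a11 positive in summed tags under every alternative run, at −0.95 to −0.43, −0.87 to −0.28, −1.11 to −0.53 and 0.90 to 1.5.

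Counts over all genes moved more. For summed tags the 21 calls became 111 without young replicates 1 and 3 together, 87 without centring (2 higher, 85 lower, against 12 and 9), 8 with regions 8-fold over input, 0 with the share of tags in called regions as covariate (1204 at an unadjusted p under 0.05), 1 with genes called in at least 5 libraries, 47 in edgeR, 298 in DESeq2 and 56 with cyclic loess scaling, and 2 to 61 without single libraries (2 without old replicate 4, 61 without young replicate 1). For length the 1 call became 25 without young replicates 1 and 3, 3 by region midpoints, and 0 without centring (1281 unadjusted), with no extension of the window (863) or with the covariate (980), and 0 to 7 without single libraries. For tags per kb the 9 became 22 without young replicates 1 and 3, 5 without centring, 16 with 10 kb windows, 0 at 8-fold (274 unadjusted) and 1 with the covariate, and 2 to 14 without single libraries. For consensus regions the 134 became 291 without young replicates 1 and 3, 725 without centring (28 higher, 697 lower), 40 on tags per kb (34 higher, 6 lower) and 0 with the covariate (1666 unadjusted), and 30 to 246 without single libraries. The difference in the share of tags in called regions was −9.66 to −6.26 points without single libraries (exact p = 0.0159 to 0.167), that in genome covered −9.15 to −3.45 Mb around −6.47 (exact p = 0.0873 to 0.397), and that in called regions −2285 to −261 around −1422. The cause was not tested.

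Same-numbered libraries of the 2 ages did not pair (correlations of their deviations −0.06 to 0.18, 1 of 5 old libraries closest to its own number). With the number as a replicate block the calls were 4 for tags, 6 for length and 74 for regions, and the adjusted p was 0.0515 for Cyp2j11 and 0.0413 for the region at the Por start.

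Signs turned in values far from the threshold. Without young replicates 1 and 3, summed tags were −0.058 for Cyp1a1, −0.20 for Cyp1a2, 0.16 for Cyp3a13, −0.026 for Gls2, −0.050 for Hmox1 and 0.12 for Tiparp, length was −0.40 for Cyp1a2 and 0.063 for Cyp3a13, and tags per kb −0.060 for Cyp2e1. Without centring, summed tags were −0.30 for Cyp1a1, length −0.018 for Cyp1a2, tags per kb −0.095 for Cyp1a1, −0.094 for Cyp2e1 and −0.011 for Cyp3a13, and the start region of Cyp3a13 −0.30. With the covariate, Cyp2e1 had 0.26 in tags, 0.11 in length and 0.28 in its region, Cyp1a1 0.29 in length and −0.18 per kb, and the start region of Cyp3a13 −0.17. By midpoints length was 0.11 for Cyp1a1 and −0.039 for Cyp1a2. At 8-fold Cyp1a1 had 0.028 in length and −0.044 per kb, and Tiparp 1.14 in tags. Tiparp was 0.0021 with loess, Cyp2d11 0.0084 over the gene span alone, the Cyp3a13 region −0.16 when regions within 500 bp were merged, and on tags per kb the regions of Cyp2e1 and at Edc3 0.068 and 0.14.

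Without single libraries, summed tags ranged from −0.084 to 0.095 for Cyp1a1, −0.28 to 0.71 for Cyp1a2, −0.63 to 0.023 for Cyp2e1, −0.20 to 0.062 for Cyp3a13, −0.13 to 0.79 for Hmox1 and −0.11 to 0.074 for Tiparp, length from −0.38 to 0.12 for Cyp1a1 and −0.48 to 0.47 for Cyp1a2, tags per kb from −0.043 to 0.28 for Cyp1a1 and −0.020 to 0.18 for Cyp2e1, and the Cyp3a13 region from −0.11 to 0.11. Whether depth sets which weak regions are listed was not tested.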

Other observations

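Among the P450 genes that could not be tested, Cyp2b9, a CYP2B gene picked out here after its values were seen, was called in 4 old libraries, with 193, 48.8, 19.5 and 33.4 scaled tags, and in 1 young library, with 14.8 tags. The share of all genes with such a split was not counted. No region was called in any library at 16 of the 51 other CYP1 to CYP3 genes, Cyp1b1, Cyp2b13 and Cyp2b19 among them.

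Of the 6 genes of the CYP2D cluster that could be tested, read here after their values were seen, 5 had negative differences in summed tags and Cyp2d26 had 0.02. Over all genes tested, 50.4% had a positive difference. Cyp2d12, called in 9 libraries, and Cyp2d34, called in 6, could not be tested and went the other way. Their mean tags were 70.7 in old and 38.7 in young, and 11.8 in old and 3.91 in young. Mean tags were 480 in old and 821 in young libraries for Cyp2d9, 239 in old and 503 in young for Cyp2d10, 235 in old and 672 in young for Cyp2d11, and 727 in old and 1283 in young for Cyp2d22. Their log2 differences were −0.47, −0.77, −0.88 and −0.46, Cyp2d40 had −0.21, and 0 of the 6 passed the adjusted threshold (2 at an unadjusted p under 0.05, both lower, against 7.12% of all genes). Over the gene span without the 5 kb flanks Cyp2d11 had 0.0084. These genes are similar in sequence, and the placing of reads shared between them is not stated.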
